A study of Mus musculus with 4 samples.

Results

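RNA levels of 34 genes of sterol synthesis, sterol sensing, oxysterol synthesis, sterol transport and the adjoining fatty acid pathway were compared between 2 stable lines of EPH-4, a mouse mammary epithelial cell line. The genes were chosen by name for their roles, with earlier results of these data known. Ch25h was among the candidates that the study had selected from its array data. All 34 were on the array, with 66 of its 41174 non-control probes, among 28146 gene names in all. A gene with several probes was represented by its brightest probe, and the other probes are given where they differ.

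EV-50 carried an empty H1-2 vector and had a normal level of the glucocorticoid receptor (GR), a nuclear receptor for cortisol and corticosterone. shGR-19 carried a vector for a short hairpin RNA against GR and was labelled as depleted to below 50% of that level. Both lines were selected after transfection together with a puromycin resistance plasmid, and both grew in serum-free DMEM/F-12 medium with 2 µg/mL puromycin and without added glucocorticoid. The lines were raised from single colonies, 1 for each vector here, so that the vector and the clone cannot be told apart. For each of 4 samples, 2 per line, 300 ng of RNA was labelled with the dye Cy3 and hybridized to a whole-genome mouse array from Agilent. The sources used here do not say whether the duplicates came from separate cultures, and p-values measure only the spread between these samples, which may be technical.

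Cholesterol is built from acetyl-CoA through mevalonate, the isoprenoid farnesyl pyrophosphate, squalene and lanosterol. When the membrane of the endoplasmic reticulum is poor in cholesterol, Scap escorts the precursors of the SREBP transcription factors, encoded by Srebf1 and Srebf2, to the Golgi, where they are cut and released to switch on the synthesis genes. Insig1 and Insig2 hold Scap back when cholesterol or oxysterols such as 25-hydroxycholesterol, the product of Ch25h, are plentiful. Oxysterols also activate the LXR receptors, which switch on the efflux pumps Abca1 and Abcg1 and, with the SREBPs, genes of fatty acid synthesis, a pathway that the mammary epithelium uses heavily for milk fat.

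The deposit held these samples in 2 forms that disagreed on how the lines differ, and values of both are given. In the value table of log2 values, centred on the median of each probe over the 4 samples, duplicates lay close together (SD of their differences 0.0874 for EV-50 and 0.0814 for shGR-19 over 7704 bright probes), and the lines differed with an SD of 0.415 or more. In the scanner files the SD was 0.0763 between replicate 1 of EV-50 and replicate 1 of shGR-19, and 0.479 and 0.581 between the duplicates of a line. Over the same probes, the table's line difference correlated at 0.960 with replicate 2 of shGR-19 minus replicate 2 of EV-50 in the scanner files, and at 0.127 with the same subtraction for replicate 1 (probes are not independent replicates). At its brightest probe, Nr3c1, the gene for GR, was lower in shGR-19 in the table by 1.94 on the log2 scale (standard error 0.048, limma adjusted p = 0.00213). Its other probes gave smaller differences, of -1.72, -1.63 and -1.41. The brightest probe read 1.74 and 1.85 in the EV-50 scanner files against 1.39 and -0.11 in those of shGR-19. The array labelled shGR-19 replicate 1 therefore read close to EV-50 for the targeted gene, and every direction taken from it rests on that label. All 6 epithelial markers were well above background on all 4 arrays, with a summed signal from 620 to 630 times the 75th percentile of the array in EV-50 and from 545 to 657 times in shGR-19. The basal keratin Krt14 was lower in shGR-19 in the table (log2 difference -1.13, limma adjusted p = 0.00331). In the scanner files the lines overlapped for Krt14, with 5.64 and 7.18 for EV-50 and 5.66 and 5.99 for shGR-19. The 4 markers each of fibroblasts, adipocytes and immune cells summed to 0.337 times the percentile or less in every sample. None of the 4 fibroblast markers, 1 of the 4 adipocyte markers (Fabp4) and 1 of the 4 immune markers (Csf1r) were well above background on all 4 arrays, and Dcn, Adipoq, Ptprc, Emr1 and Itgam were so on none. Pdgfra, a dim fibroblast marker, was higher in shGR-19 in the table (log2 difference 1.16, limma adjusted p = 0.00384). Only 3 arrays detected it clearly, so that it was kept for testing through 1 line alone. In the scanner files the lines overlapped for Pdgfra, with -5.80 and -4.06 for EV-50 and -5.07 and -2.91 for shGR-19. The part of fibroblasts, adipocytes and immune cells in the results was not tested.

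Of the 34 genes, 33 were well above background on all 4 arrays, and Abca1 was not on the array labelled shGR-19 replicate 2. All 34 passed the filter, which kept 24453 probes for 16769 genes. In the value table, limma called 12 of the 34 genes lower in shGR-19 and 1 higher at a Benjamini-Hochberg adjusted p below 0.01, against 6.51% of all genes called lower and 6.12% called higher, and 21 were not called. Sterol synthesis genes made up 10 of the 12 lower calls and the only higher one. At an adjusted p below 0.05, 23 were lower and 2 higher, against 17.8% and 19.4% of all genes. At any size of difference 30 of the 34 were lower, against 47.8% of all genes, with a median log2 difference of -0.45 over the 34 and 0.018 over all genes. With a difference of more than 2-fold required as well, Ch25h and Sqle remained lower and Dhcr7 higher, against 2.7% and 2.17% of all genes. With all non-control probes kept, or with the replicate number as a block, limma called 0 of the 34 genes in either direction. With any 1 of the 4 columns left out it called 0 of the 24453 kept probes, although 30 of the 34 genes were lower each time.

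**Figure D1:**
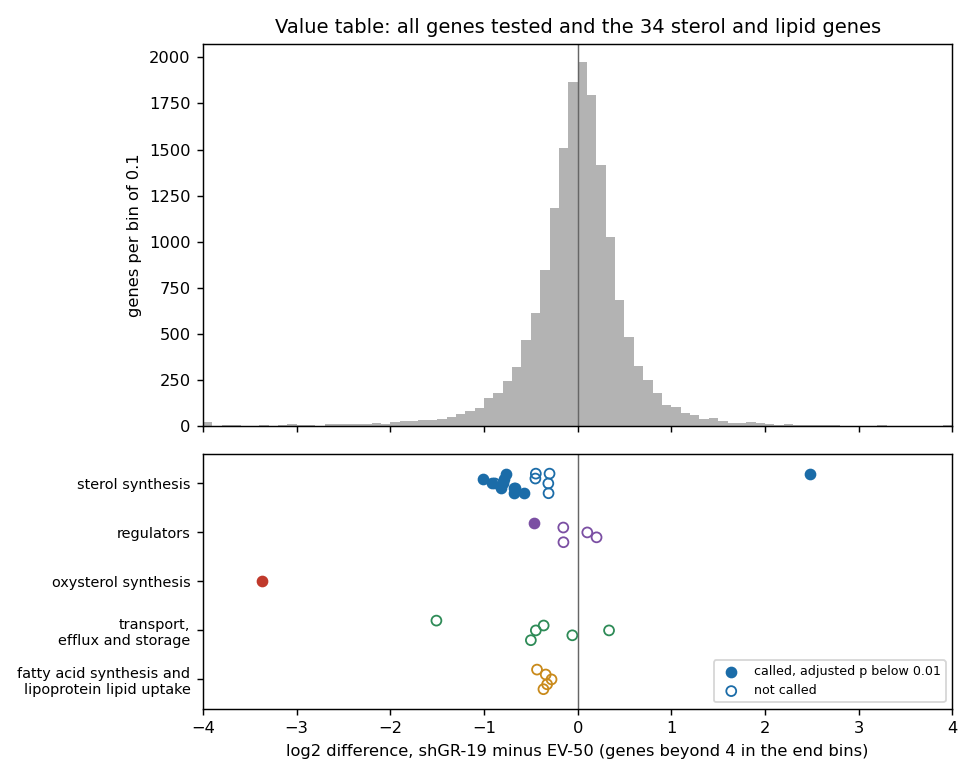
Upper panel, number of genes (bins of 0.1) by log2 difference (shGR-19 minus EV-50) in the value table over the 16769 genes tested. Lower panel, the 34 genes by role on the same axis, filled where limma called them at an adjusted p below 0.01 and open otherwise, with heights within a role spread only for legibility. Sterol synthesis genes other than Dhcr7 sit between -1.01 and -0.30, Dhcr7 at 2.48 and Ch25h at -3.37.

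Of 17 genes of the synthesis pathway, 16 had lower values in shGR-19 than in EV-50 in the table, by -1.01 to -0.30 on the log2 scale, and 1, Dhcr7, was higher. limma called 10 of the 17 lower, spread from mevalonate to the late steps after lanosterol, against 6.51% of all genes. The median log2 difference of the 16 lower genes was -0.68. For all of these 16, both shGR-19 columns lay below both EV-50 columns, which was so for 34.1% of all genes. As separation without a test is frequent in this table, it is given here as a description.

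Sqle encodes squalene epoxidase, which oxidizes squalene at a rate-controlling step of the pathway. Its table values were 0.47 and 0.58 in EV-50 and -0.47 and -0.51 in shGR-19 (log2 units from the probe's median). The lines did not overlap, and the log2 difference of -1.01 (standard error 0.065, limma adjusted p = 0.00497) was a 2.02-fold decrease, the only one beyond 2-fold among the brightest probes of the synthesis genes. The Sqle probe maps to mm9 chromosome 15, bases 59162384 to 59162443. On the scanner arrays Sqle read 5.59 and 5.39 for EV-50 and 5.65 and 4.38 for shGR-19 (log2 units from the array's 75th percentile). There the array labelled shGR-19 replicate 2 was the low one, and the other array with this label lay above both EV-50 arrays.

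Idi1, the isomerase that makes dimethylallyl pyrophosphate for the chain-building steps, read 0.50 and 0.40 in EV-50 and -0.40 and -0.53 in shGR-19 in the table. Its log2 difference was -0.92 (standard error 0.075, adjusted p = 0.00704), and its other probe gave -1.04. Mvd, the decarboxylase that ends the mevalonate steps, read 0.48 and 0.35 against -0.35 and -0.46, a difference of -0.82 (standard error 0.078, adjusted p = 0.00868). The 2 enzymes act in adjacent steps, and for both the shGR-19 columns lay below the EV-50 columns. On the scanner arrays labelled replicate 2 they were lower in shGR-19 by -1.06 and -0.91, and on those labelled replicate 1 the differences were -0.16 and 0.047.

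After farnesyl pyrophosphate, Fdft1 (squalene synthase, the branch point towards sterols) read 0.35 and 0.31 in EV-50 and -0.37 and -0.31 in shGR-19, a log2 difference of -0.68 (standard error 0.053, adjusted p = 0.00652). Its other probe had a difference of -0.49 and was not called (adjusted p = 0.0501). Lss (lanosterol synthase, which closes the sterol rings) read 0.30 and 0.35 against -0.40 and -0.30, a difference of -0.68 (standard error 0.061, adjusted p = 0.00798). The brightest Lss probe maps to mm9 chromosome 10, bases 76015992 to 76016051. The other Lss probes gave -0.64 and -0.053, neither called, so that 1 of 3 probes of the gene read nearly the same in both lines.

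In the steps that trim lanosterol, 5 genes were called lower. Cyp51, the lanosterol demethylase, read 0.39 and 0.43 in EV-50 and -0.39 in both shGR-19 columns (difference -0.80, standard error 0.048, adjusted p = 0.00469). Its other probes gave -1.01 and -0.73, and all 3 were called. Nsdhl, a sterol dehydrogenase, read 0.37 in both EV-50 columns and -0.44 and -0.37 in shGR-19 (difference -0.78, standard error 0.053, adjusted p = 0.00535), with its other 3 probes between -0.90 and -0.77. Tm7sf2, a sterol reductase, read 0.45 and 0.34 against -0.39 and -0.34 (difference -0.76, standard error 0.062, adjusted p = 0.00692). Ebp, a sterol isomerase, read 0.31 and 0.36 against -0.31 and -0.37 (difference -0.67, standard error 0.055, adjusted p = 0.00695), and Sc4mol, the sterol methyl oxidase now named Msmo1, had the smallest called difference of these steps, -0.57 (standard error 0.045, adjusted p = 0.00669). In each of these 5 genes the EV-50 columns were high and the shGR-19 columns low, without overlap. Between the scanner arrays labelled replicate 2 the differences of these genes ranged from -0.88 to -0.52.

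The 6 synthesis genes that were not called all had values below 0 for the difference. Acat2, the thiolase at the entry of the pathway, read 0.36 and 0.52 in EV-50 and -0.54 and -0.36 in shGR-19 (difference -0.89, standard error 0.10, adjusted p = 0.0122), a difference as large as that of called genes with a wider spread. Pmvk and Mvk, kinases of the mevalonate steps, had differences of -0.45 and -0.31, and Fdps and Sc5d of -0.45 and -0.31. The brightest Fdps probe read 0.057 and 0.35 against -0.42 and -0.057, so that its columns nearly met, while the other probe of Fdps had a difference of -0.78 that was called (adjusted p = 0.00695). Hmgcs1, which makes the direct precursor of mevalonate, had the smallest difference of the synthesis genes. It read 0.13 and 0.18 in EV-50 and -0.13 and -0.16 in shGR-19 (difference -0.30, standard error 0.051, adjusted p = 0.0240). Its other probes, which lie elsewhere on the same unplaced sequence of chromosome 13, gave -0.96 and -0.53, and none of the 3 was called.

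**Figure D2:**
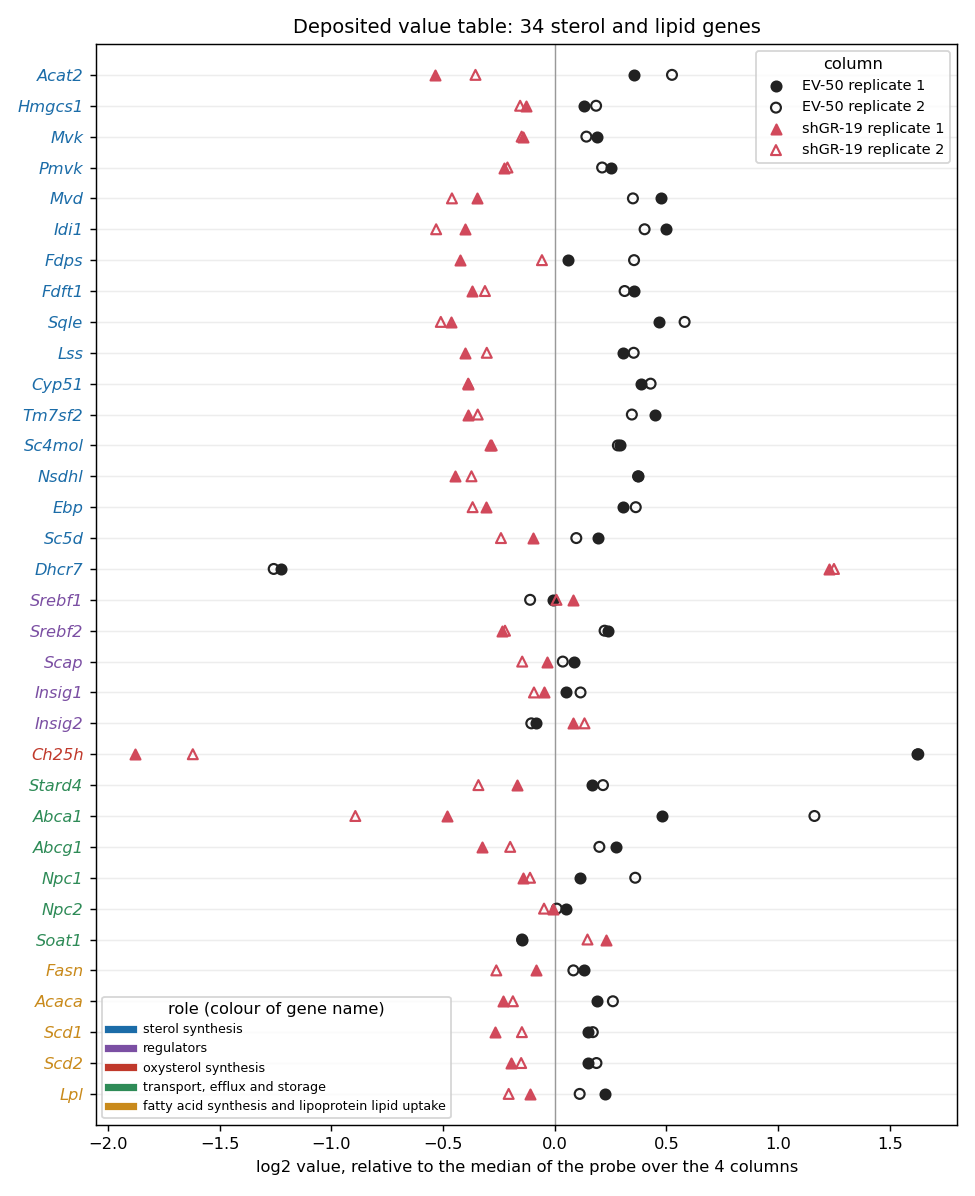
Value of each of the 34 genes in the 4 columns of the value table (horizontal axis, log2 units from the probe's median), with EV-50 as circles and shGR-19 as triangles and gene names coloured by role. The sterol synthesis genes apart from Dhcr7 have the EV-50 columns to the right of the shGR-19 columns, and Ch25h (1.62 and 1.63 against -1.88 and -1.62) and Dhcr7 lie farthest apart.

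Dhcr7 was the exception of the pathway. It encodes dehydrocholesterol reductase, which makes cholesterol in the last step of one branch and, by using up its substrate, competes with vitamin D synthesis. It read -1.23 and -1.26 in EV-50 and 1.23 and 1.25 in shGR-19 in the table. Both shGR-19 columns were high (SD 0.017 in shGR-19 and 0.023 in EV-50, n = 2), and the log2 difference of 2.48 (standard error 0.048, limma adjusted p = 0.00169) was a 5.58-fold increase. Its probes map to mm9 chromosome 7, from 151034253 to 151034312 and from 151033682 to 151033741, and the second gave 2.43. On the scanner arrays Dhcr7 read 1.73 and 0.73 for EV-50 and 1.71 and 3.06 for shGR-19, so that the arrays labelled replicate 1 were alike and those labelled replicate 2 lay 2.32 apart. Among all 16769 genes, 47 including Dhcr7 had a difference at least as high.

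The proximal promoters of 3 synthesis genes, 1 of them the gene that rose, are shown. Marked in them are letters that SREBP-responsive promoters are known to use and a GR half-site. They are the 250 bases before the RefSeq start on GRCm38.p6, for Hmgcs1 (chr13:119690101-119690350, plus strand), which holds the one match to the sterol element among the 25 genes with a listed window, for Idi1 (chr13:8885356-8885605, plus strand), which was called lower, and for Dhcr7 (chr7:143829964-143830213, plus strand), which rose. Of 3 listed windows for Dhcr7, the one with the most matches is given. Capitals mark, on either strand, TCACNCCAC (core of the sterol regulatory element SRE-1), CCAAT (the box bound by NF-Y), CACGTG (an E-box, which SREBPs can also bind) and AGAACA (one arm of a GR response element). No marked letters are shared between motifs.
Hmgcs1: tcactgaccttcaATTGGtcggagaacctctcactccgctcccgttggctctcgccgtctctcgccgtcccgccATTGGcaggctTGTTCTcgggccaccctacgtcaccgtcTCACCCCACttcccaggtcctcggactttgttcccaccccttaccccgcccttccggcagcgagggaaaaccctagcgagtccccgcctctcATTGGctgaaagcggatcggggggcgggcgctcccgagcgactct
Idi1: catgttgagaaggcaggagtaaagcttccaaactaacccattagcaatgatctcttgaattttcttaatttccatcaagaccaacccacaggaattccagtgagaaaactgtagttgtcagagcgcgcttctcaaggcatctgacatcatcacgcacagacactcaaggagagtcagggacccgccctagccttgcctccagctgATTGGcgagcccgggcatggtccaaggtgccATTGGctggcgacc
Dhcr7: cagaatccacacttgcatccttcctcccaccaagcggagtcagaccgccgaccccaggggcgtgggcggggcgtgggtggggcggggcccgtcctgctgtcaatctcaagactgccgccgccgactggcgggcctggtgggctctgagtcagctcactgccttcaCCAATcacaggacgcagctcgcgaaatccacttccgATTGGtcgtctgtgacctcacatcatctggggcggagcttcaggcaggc
Hmgcs1 held the sterol element from 137 bases before its start, CCAAT boxes from 237, 176 and 45 bases before and a GR half-site from 165 bases before, where each position is that of the first base on the strand shown. Idi1 held CCAAT boxes from 45 and 14 bases before, and Dhcr7 from 85 and 49 bases before. The same Dhcr7 window also held 1 GR half-site in the 50 bases after the start, which are not shown, and 1 of its other 2 windows held an E-box. Windows from 250 bases before to 50 after the start were found for 25 of the 34 genes, 33 windows in all, and for 14 of the 17 synthesis genes, 17 windows. CCAAT was in 13 of the 17 windows of synthesis genes, against 37.4% of 32851 windows of all genes. The SRE-1 core was in 1 of them against 1.24%, CACGTG in 2 against 7.15% and AGAACA in 3 against 6233 of the 32851 windows. A match is only a run of letters.

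Of the 5 sensors and transcription factors, 1 was called. Srebf2, whose product is the main activator of the synthesis genes, read 0.24 and 0.22 in EV-50 and -0.24 and -0.22 in shGR-19. The columns did not overlap, and the log2 difference was -0.46 (standard error 0.046, limma adjusted p = 0.00927), a 1.38-fold decrease. The probe maps to mm9 chromosome 15, bases 82035695 to 82035754. The other 3 probes gave -0.69, -0.51 and -0.43, and none of them was called. Between the scanner arrays labelled replicate 2 Srebf2 was lower by -0.58, and between those labelled replicate 1 the difference was 0.16.

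The other regulators differed by 0.20 or less on the log2 scale at their brightest probes. Srebf1, which favours fatty acid synthesis, had the smallest difference, with -0.0075 and -0.11 in EV-50 and 0.080 and 0.0075 in shGR-19 (difference 0.10, standard error 0.066, limma adjusted p = 0.298). Scap read 0.086 and 0.036 against -0.036 and -0.15 (difference -0.15, standard error 0.064, adjusted p = 0.155). Insig1, itself a target of the SREBPs, read 0.049 and 0.12 against -0.049 and -0.093 (difference -0.15, standard error 0.054, adjusted p = 0.110). Its other probe had a larger difference, -0.54 (standard error 0.11, adjusted p = 0.0349), so that the size for this gene depends on the probe. Insig2 read -0.083 and -0.11 against 0.083 and 0.13, a difference of 0.20 (standard error 0.050, adjusted p = 0.0529), with 0.11 at its other probe. None of these 4 genes passed the test, which does not show that their levels were the same in both lines.

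Ch25h, the cholesterol hydroxylase that makes 25-hydroxycholesterol, had the largest difference of the 34 genes. Its table values were 1.62 and 1.63 in EV-50 and -1.88 and -1.62 in shGR-19, with means of 1.62 ± 0.0048 and -1.75 ± 0.18 (SD, n = 2). Both shGR-19 columns were low, and the log2 difference of -3.37 (standard error 0.11, limma adjusted p = 0.00251) was a 10.4-fold decrease. Among the 16769 genes, 38 including Ch25h had a difference at least as low. It was read by 1 probe, on mm9 chromosome 19, bases 34548418 to 34548477. With each column left out in turn the difference stayed between -3.50 and -3.24, and the adjusted p lay between 0.0259 and 0.0369.

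On the scanner arrays Ch25h read -1.11 and -0.66 for EV-50 and -1.25 and -4.19 for shGR-19. Both shGR-19 arrays lay below both EV-50 arrays, narrowly for the array labelled replicate 1, and Ch25h was well above background on all 4. The log2 difference of -1.83 (standard error 1.03) was not called by limma (adjusted p = 1.00). Between the arrays labelled replicate 2 it was -3.53, an 11.5-fold lower signal, and -0.14 between the replicate 1 arrays. With shGR-19 replicate 2 left out, the difference was -0.37.

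The Ch25h promoter is shown because the study examined GR at this gene. The 250 bases before its RefSeq start on GRCm38.p6 (chr19:34475149-34475398, minus strand) held none of the 4 motifs and so have no capitals.
Ch25h: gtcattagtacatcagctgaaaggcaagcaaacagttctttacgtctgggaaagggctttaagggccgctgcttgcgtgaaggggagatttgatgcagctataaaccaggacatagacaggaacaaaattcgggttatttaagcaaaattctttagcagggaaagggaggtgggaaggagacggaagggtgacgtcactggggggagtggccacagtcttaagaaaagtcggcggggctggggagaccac
The letters searched are thus not in this window. The region in which the study examined GR extends well beyond this window, and only its part near the start was searched here.

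None of the 6 genes of sterol transport, efflux and storage was called. Abca1, the pump that loads cholesterol onto apolipoprotein A-I, had the largest difference. It read 0.48 and 1.16 in EV-50 and -0.48 and -0.89 in shGR-19, and the lines did not overlap, but the duplicates lay far apart (difference -1.51, standard error 0.30, limma adjusted p = 0.0344). It was a dim probe, at -3.74, -5.41, -4.30 and -6.84 on the scanner arrays in the order EV-50 replicates 1 and 2 and shGR-19 replicates 1 and 2. The lines overlapped there, and Abca1 passed the filter through EV-50, the line in which it was higher. Abcg1, a second efflux pump and LXR target, had a difference of -0.50 (standard error 0.071, adjusted p = 0.0177) in the table. On the scanner arrays it read 0.48 and -2.17 for EV-50 and 0.35 and -2.71 for shGR-19, so that it differed far more between replicate numbers than between lines.

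Stard4, a carrier of cholesterol between membranes and an SREBP target, had a difference of -0.45 (standard error 0.082, adjusted p = 0.0283), and its other probes gave -0.54 and -0.57. Npc1 and Npc2, which export cholesterol from lysosomes, had differences of -0.36 (adjusted p = 0.0734) and -0.057 (standard error 0.050, adjusted p = 0.434). Npc2 had the smallest difference of the 34 genes, with 0.048 and 0.0088 in EV-50 and -0.0088 and -0.048 in shGR-19, and it turned to 0.058 after quantile normalization. Soat1, which esterifies cholesterol for storage, was the one gene of this group with a higher value in shGR-19. It read -0.15 in both EV-50 columns and 0.23 and 0.15 in shGR-19 (difference 0.34, standard error 0.055, adjusted p = 0.0230).

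None of the 5 genes of fatty acid synthesis and lipoprotein lipid uptake was called at its brightest probe, and all 5 differences were below 0, from -0.43 to -0.28. Acaca, the acetyl-CoA carboxylase that makes malonyl-CoA, had the largest, with 0.19 and 0.26 in EV-50 and -0.23 and -0.19 in shGR-19 (difference -0.43, standard error 0.056, limma adjusted p = 0.0144). Its other 3 kept probes gave -0.32, -0.26 and -0.14. Fasn, the fatty acid synthase, had the smallest, with 0.13 and 0.083 against -0.083 and -0.26 (difference -0.28, standard error 0.083, adjusted p = 0.0774), while its other probe had a difference of -0.49 that was called (adjusted p = 0.00867). The desaturases Scd1 and Scd2 had differences of -0.37 and -0.34, and cross-hybridization between this related pair was not tested. Lpl, which releases fatty acids from lipoproteins, had a difference of -0.33 and of -0.56 at its other probe. The differences of this group were about as large as those of the uncalled synthesis genes Hmgcs1, Mvk and Sc5d.

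**Figure D3:**
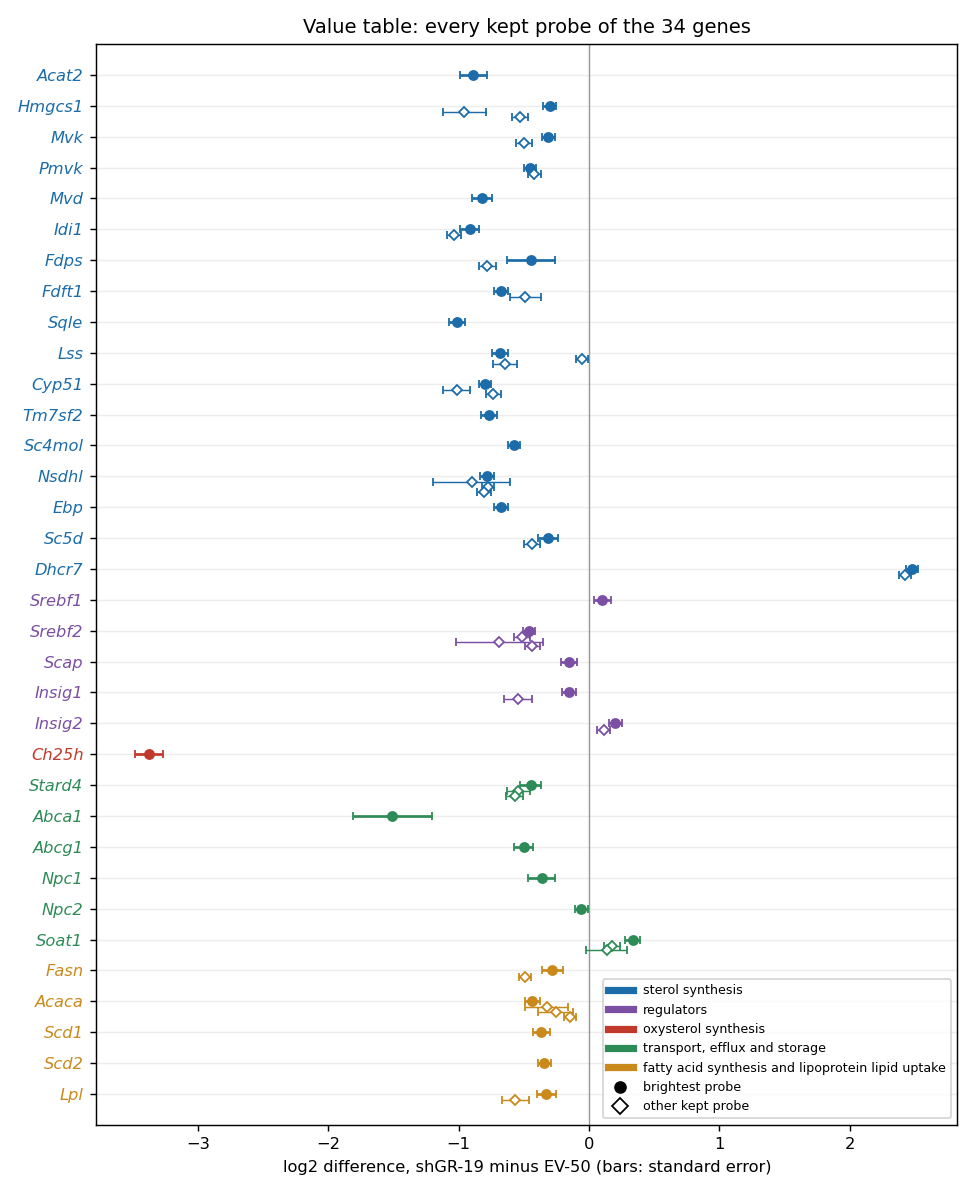
Log2 difference, shGR-19 minus EV-50, in the value table (horizontal axis, bars show the standard error from limma) for every kept probe of the 34 genes, with the brightest probe as a filled circle and others as open diamonds. All 30 other kept probes have the direction of the brightest probe of their gene, and those of Lss (-0.053), Hmgcs1 and Insig1 stand apart from it in size.

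Of the 34 genes, 20 had several probes, and the 32 probes beside the brightest ones give a reading of the same RNA at another place. Of these, 30 passed the filter, and all 30 had the direction of the brightest probe of their gene in the value table. Calls were less uniform. For 21 of the 30 the call was that of the brightest probe, 7 were not called where the brightest was (Fdft1, Lss, Nsdhl and Srebf2), and 2 were called where it was not (Fdps and Fasn). The probes of a gene share the same 4 samples and are not replicates of the comparison.

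In the scanner files limma called none of the 34 genes at an adjusted p below 0.01, against 0.0% of all genes, and none had an unadjusted p below 0.05, against 0.906% of all genes. With the spread between these arrays, this does not show that the levels were the same. The median log2 difference over the 34 genes was -0.24, with 30 lower. Taken by replicate number, 30 of the 34 genes were lower in shGR-19 between the arrays labelled replicate 2, against 48.5% of all genes, with a median of -0.52. Between the arrays labelled replicate 1, 17 of the 34 were lower, against 41.8% of all genes, with a median of -0.0028. For the synthesis genes other than Dhcr7 the same medians were -0.67 and -0.0028, and on the latter arrays the differences spanned from -0.16 to 0.20. Both scanner arrays labelled shGR-19 lay below both labelled EV-50 for Ch25h, Stard4 and Fasn, 3 of the 34 genes, against 6.62% of all genes, and for none did both lie above, against 11.9%. With shGR-19 replicate 2 left out, the median over the 34 genes was 0.050, with 12 lower. Without that array the difference was -0.37 for Ch25h and 0.48 for Dhcr7. For Dhcr7 the remaining shGR-19 array read 1.71, between the EV-50 arrays at 1.73 and 0.73. Between the replicate 1 arrays Dhcr7 differed by -0.020, so that its direction there depends on the EV-50 array taken.

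**Figure D4:**
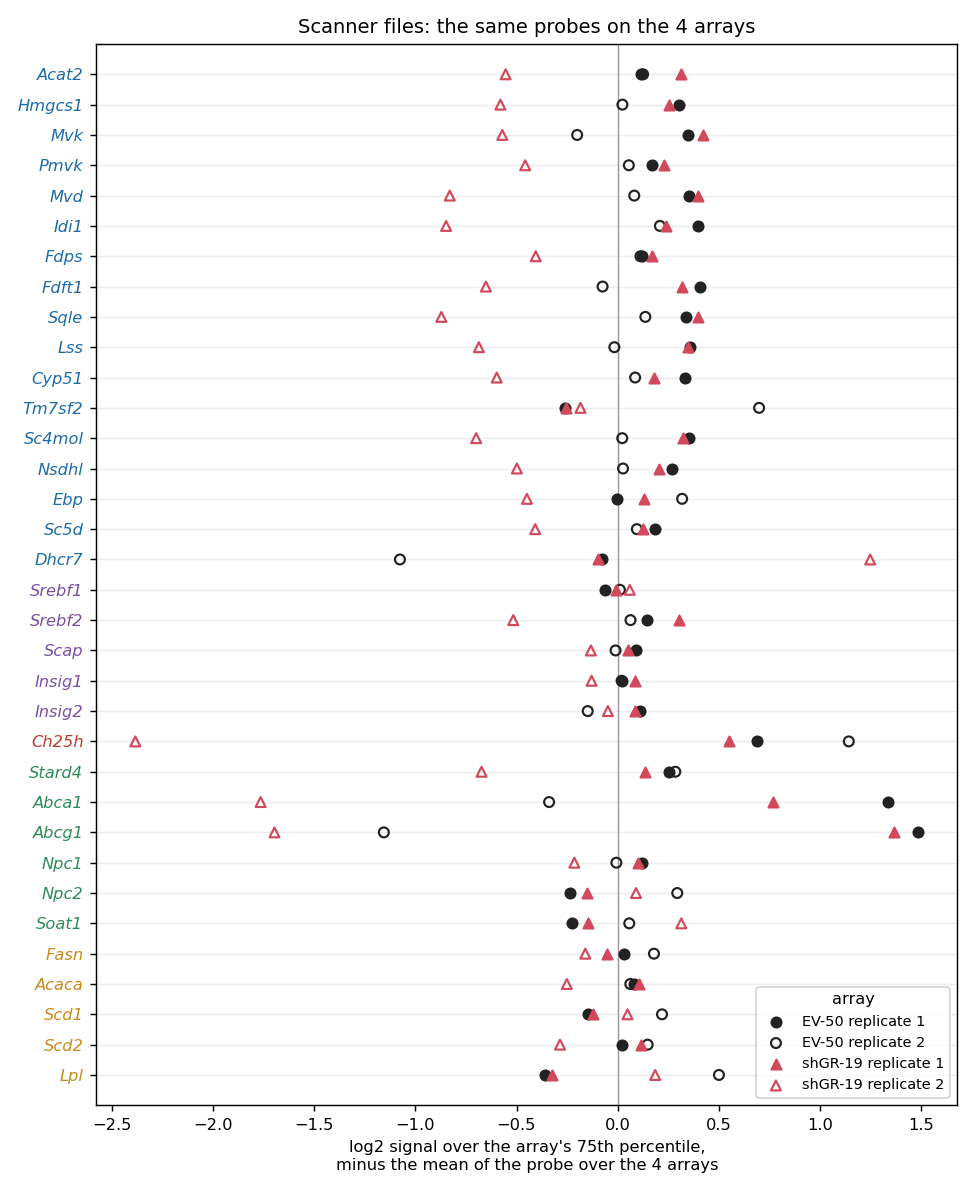
Signal of the same 34 probes on the 4 scanner arrays (horizontal axis, log2 over the 75th percentile of the array, minus the mean of the probe over the 4 arrays), with EV-50 as circles and shGR-19 as triangles, filled for replicate 1 and open for replicate 2. For most synthesis genes the open triangle lies to the left of the other 3 points, and the filled circle and filled triangle lie close together.

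**Figure D5:**
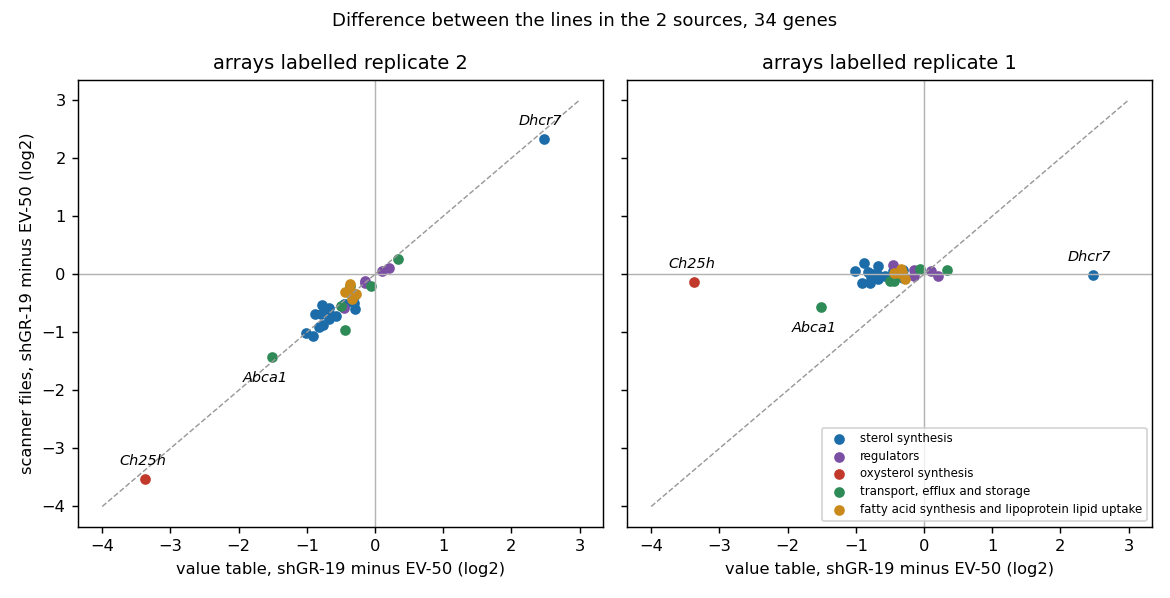
Difference, shGR-19 minus EV-50, for the 34 genes in the value table (horizontal axis, log2) and in the scanner files (vertical axis, log2), between the arrays labelled replicate 2 on the left and replicate 1 on the right, with equality as a dashed line. On the left the genes follow the line from Ch25h (-3.37 and -3.53) to Dhcr7 (2.48 and 2.32), and on the right they lie near 0 on the vertical axis.

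Other genes of these pathways were read from a list of 48 sterol and lipid genes, of which 42 passed the filter. In the value table limma called 7 of the 42 lower in shGR-19 and 3 higher at an adjusted p below 0.01, against 6.51% and 6.12% of all genes, and 32 were not called. The median log2 difference was -0.078. The largest decreases were those of Erlin1, an endoplasmic reticulum protein that takes part in the turnover of sterol regulators (log2 difference -0.94, standard error 0.050, adjusted p = 0.00404), Me1, the malic enzyme that supplies NADPH for lipid synthesis (-0.91, standard error 0.070, adjusted p = 0.00637), and Hsd17b7, a ketosteroid reductase of the late synthesis steps (-0.67, standard error 0.061, adjusted p = 0.00828). Of the 3 called higher, Soat2, which esterifies cholesterol, was well above background on neither EV-50 array and passed the filter through shGR-19. Its call (limma adjusted p = 0.00837) thus rests on the line in which it was high. Its mean scanner signal was 2.19-fold higher in shGR-19, but the arrays of the lines overlapped. They read -5.45 and -7.16 for EV-50 and -4.69 and -5.66 for shGR-19. The others were Mylip, an LXR target that marks lipoprotein receptors for degradation (0.69, standard error 0.055, adjusted p = 0.00673) and Cav1, the caveolin of cholesterol-rich membrane pits (0.66, standard error 0.054, adjusted p = 0.00701). Cyp39a1 was the only one of 5 kept oxysterol and bile acid enzymes that was called (-0.50), and the LXR genes Nr1h2 (0.13) and Nr1h3 (-0.069) were not. In the scanner files none of the 42 was called.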

How the data were processed

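RNA from 2 samples of each line was measured on one-colour Agilent arrays, and the scanner files carry 1 scan date. The scanner files hold the intensity of each spot, which the authors processed with Agilent Feature Extraction 10.5.1.1. The study states that this software normalized the data at its default one-colour settings. The 75th percentile of the signal still ranged from 539.7 to 612.3 between arrays. The deposited value table holds log2 values that the authors normalized in GeneSpring by the steps Agilent recommends, which are not detailed in the sources used here. They are centred on the median of each probe. Probe positions are those of mm9.

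Scanner signals were taken as log2 minus the 75th percentile of the array, without control spots and the 74 to 139 outlier spots per array. No spot was saturated. Precision is limited by there being 2 arrays per line. A probe was kept, in both sources, if both arrays of either line had it well above background. limma 3.58.1 in R 4.3.3 compared the lines (lmFit and eBayes, Benjamini-Hochberg adjustment over the 24453 kept probes), called at an adjusted p below 0.01. The fit was tested on simulated data. There it missed every planted change in the scanner files. In the value table it missed most of the smaller changes and some of the larger ones, so that a gene not called may still differ. Described in full were Ch25h, the regulators, every member called in the table, and the members of each role with the largest and smallest difference, and of other pathway genes up to 3 called rises and 3 falls. The members and lists were chosen with earlier results of these data known. Motif positions, promoter windows and the added settings were chosen after the data were seen.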

Additional observations from a re-analysis of the deposited data

How the results depend on the processing

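In the value table, 12 of the 34 genes were called lower, 1 higher, and 10 of the other pathway genes. With all non-control probes kept, 0 were called in each of these counts (Ch25h -3.37, adjusted p = 0.0115), as with the replicate number as a block (Ch25h -3.37, adjusted p = 0.0293). The labels do not say what the numbers share, and same-numbered deviations had a correlation of 0.0558 in the table and 0.574 in the scanner files. With an intensity trend and robust prior (statmod 1.5.0) 25 were called lower, 3 higher and 22 of the others. An adjusted p below 0.05 gave 23, 2 and 23, and an unadjusted p below 0.01 gave 21, 2 and 21. An added 2-fold limit left 2 lower, 1 higher and 1 of the others. With each column left out, each count was 0 (0 to 0), with 9073 to 9829 probes and 25 to 27 of the 34 genes at an unadjusted p below 0.05 by limma. Ch25h then ranged from -3.50 to -3.24 and the median of the 34 genes from -0.47 to -0.41. That median was -0.48 with the mean over the probes of a gene and -0.38 after quantile normalization, where Npc2 turned to 0.058 and the median of all genes was 0.11. In the scanner files in place of the table, 0 were called in each count, the median was -0.24 and Ch25h -1.83. The table in place of the scanner files gave 12, 1 and 10, with Ch25h at -3.37. Among single genes in the table, 390 of their values under the alternatives kept direction and call, 107 lost the call, 44 gained it and 1 reversed. A cause of these changes was not tested. Normexp background, quantile normalization and the 75th percentile over detected probes left 0 calls in the scanner files.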

Other observations

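Dhcr7, the one synthesis gene that rose, was set beside its chromosomal neighbours after its values were seen. Within 500 kb of its probe, 12 other kept genes were measured in the value table, of which limma called 3 higher and 1 lower at an adjusted p below 0.01, against 6.12% and 6.51% of all genes. Phlda2, an imprinted gene that restrains placental growth, rose by 2.79 on the log2 scale (standard error 0.048, adjusted p = 0.00147), and its neighbour Slc22a18 fell by 1.41 (standard error 0.13, adjusted p = 0.00863). Nadsyn1, the nearest measured gene, 52 kb away, had a difference of 0.31 and was not called (adjusted p = 0.0201). Osbpl5, which encodes an oxysterol-binding protein relative, rose by 0.53 (adjusted p = 0.00774), and Mrgpre by 0.68 (adjusted p = 0.00581). Tnfrsf26 had a difference of 1.37 and was not called (adjusted p = 0.0154). It was well above background on 1 EV-50 array only and passed the filter through shGR-19, the line in which it was high. The median over the 12 genes was 0.20.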
